A study of Homo sapiens with 2 samples.

Results

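The regions described here are the short arms and centromeres of the 5 acrocentric human chromosomes, taken as the peaks that lay fully within chr13:1-18100000, chr14:1-18200000, chr15:1-19800000, chr21:1-13000000 or chr22:1-15100000 (hg38). They held 533 of the 4015 peaks of the vector library and 721 of the 8928 peaks of the APOC2 library, or 1254 of 12943 peaks in all, and were chosen by position only. The peaks came from PHF8 ChIP-seq, the sequencing of chromatin fragments pulled down with an antibody to PHF8, in the RKO cell line of human colon carcinoma. One group was cells transfected with vector, and the other was cells transfected with an APOC2 overexpression plasmid, which codes for an apolipoprotein of blood lipid particles. Each condition had 1 library, so nothing below carries a test between conditions, and the intervals given cover counting error over peaks only. The level of APOC2 and of PHF8 in these cells was not measured by the tables used here.

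PHF8 is a histone demethylase with a PHD finger that reads the trimethyl mark on lysine 4 of histone H3 at active promoters and removes the repressive methyl marks on lysine 9 of histone H3 and lysine 20 of histone H4. It is known to bind the genes for ribosomal RNA (rDNA) and to help RNA polymerase I transcribe them. The short arms of the acrocentric chromosomes carry these genes in long tandem arrays, the nucleolar organizers, between blocks of satellite repeats. The reference assembly holds only a few rDNA units, models the centromeres, and leaves much of each short arm without sequence, so reads from many copies in the cell pile up on few copies in the reference. The reference also carries on chromosome 21p extra copies of long-arm genes such as U2AF1, CBS, CRYAA, KCNE1 and SMIM11, and an aligner cannot tell near-identical copies apart.

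The annotation divided the windows into 3 classes, and genes were annotated in only part of them. Annotated genes reached to position 16057622 of chromosome 14, 10649835 of chromosome 21 and 12815793 of chromosome 22, and no gene was annotated in the windows of chromosomes 13 and 15. Of the peaks, 20 in each library lay in the rDNA units of chromosome 21, and 90 vector and 161 APOC2 peaks lay elsewhere in the gene-bearing short arms. The remaining 423 vector and 540 APOC2 peaks lay in the gene-free stretch between the last gene and the window edge, which includes the centromere models. Whether these peaks lay on satellite DNA was not examined, because no genome sequence was used here. The first peak of either library lay at position 16159742 on chromosome 13, 16348445 on chromosome 14 and 17000428 on chromosome 15, so these 3 windows showed peaks only toward their long-arm side. On chromosomes 21 and 22 the first peaks lay at positions 5022530 and 10696030.

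The promoters of the short arm of chromosome 21 that carried a peak are shown first, because they are the places where the peak sets of the libraries differed at annotated starts. The sequences are RefSeq promoters (GRCh38.p14, 250 bases before to 50 bases after a start site), written 5′ to 3′ on the strand of the gene, with each CG dinucleotide in capitals. Each overlaps a peak, but at all of them except LOC102723553 the APOC2 summit lay outside the printed bases. The first is 1 of 4 identical copies, LOC124904990 at chr21:5710123-5710422 (minus strand), LOC124904989 at chr21:7142275-7142574 (minus), LOC124904991 at chr21:7614056-7614355 (plus) and LOC124904992 at chr21:8108192-8108491 (minus). The next 3 are LOC102723996 at chr21:5022281-5022580 (plus), LOC102724594, the U2AF1 copy U2AF1L5, at chr21:6499199-6499498 (minus), and LOC102723553, the SMIM11 copy SMIM11B, at chr21:7745037-7745336 (plus). These carried a peak in the APOC2 library only. LOC101930100 at chr21:9324798-9325097 (plus) had the highest ratio of APOC2 to vector fold enrichment in the windows. LOC101927345 at chr21:9376728-9377027 (minus), which has no CG at all, had a peak in both libraries.
LOC124904990: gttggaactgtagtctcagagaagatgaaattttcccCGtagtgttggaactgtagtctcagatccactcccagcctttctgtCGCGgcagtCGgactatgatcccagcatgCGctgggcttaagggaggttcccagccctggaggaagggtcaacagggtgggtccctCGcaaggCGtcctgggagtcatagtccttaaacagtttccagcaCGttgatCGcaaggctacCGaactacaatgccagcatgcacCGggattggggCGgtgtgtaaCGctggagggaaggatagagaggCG
LOC102723996: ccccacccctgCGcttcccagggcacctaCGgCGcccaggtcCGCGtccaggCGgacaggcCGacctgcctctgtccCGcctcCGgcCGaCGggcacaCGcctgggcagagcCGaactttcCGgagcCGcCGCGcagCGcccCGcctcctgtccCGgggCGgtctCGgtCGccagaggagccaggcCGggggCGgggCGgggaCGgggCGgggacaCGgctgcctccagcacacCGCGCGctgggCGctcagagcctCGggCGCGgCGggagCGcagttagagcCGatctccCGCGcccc
LOC102724594: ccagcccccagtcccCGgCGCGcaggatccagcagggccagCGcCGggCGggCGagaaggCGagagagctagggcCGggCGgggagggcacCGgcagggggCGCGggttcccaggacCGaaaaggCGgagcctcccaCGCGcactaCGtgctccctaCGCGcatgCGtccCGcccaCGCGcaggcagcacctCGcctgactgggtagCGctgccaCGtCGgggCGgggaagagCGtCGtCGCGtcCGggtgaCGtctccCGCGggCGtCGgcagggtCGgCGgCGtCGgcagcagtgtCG
LOC102723553: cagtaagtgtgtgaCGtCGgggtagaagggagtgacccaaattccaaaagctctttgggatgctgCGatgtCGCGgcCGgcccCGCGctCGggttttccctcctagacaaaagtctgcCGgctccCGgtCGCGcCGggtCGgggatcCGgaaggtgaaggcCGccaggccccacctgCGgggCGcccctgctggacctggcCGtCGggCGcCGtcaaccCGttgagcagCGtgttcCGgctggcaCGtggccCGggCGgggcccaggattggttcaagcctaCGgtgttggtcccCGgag
LOC101930100: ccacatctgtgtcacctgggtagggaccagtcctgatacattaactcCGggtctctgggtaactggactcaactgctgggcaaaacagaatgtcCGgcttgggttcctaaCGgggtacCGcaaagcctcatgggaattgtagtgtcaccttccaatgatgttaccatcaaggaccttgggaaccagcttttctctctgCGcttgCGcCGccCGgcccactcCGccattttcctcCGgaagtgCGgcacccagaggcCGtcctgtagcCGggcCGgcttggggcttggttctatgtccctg
LOC101927345: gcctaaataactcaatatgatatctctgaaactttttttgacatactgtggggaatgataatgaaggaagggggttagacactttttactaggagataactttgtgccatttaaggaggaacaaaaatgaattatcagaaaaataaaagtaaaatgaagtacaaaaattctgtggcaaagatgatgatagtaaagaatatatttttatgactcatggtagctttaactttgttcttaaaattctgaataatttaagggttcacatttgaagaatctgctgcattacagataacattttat

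The rDNA genes on chromosome 21 carried the densest signal of the windows, in both libraries alike. The reference places 3 full units, RNA45SN2 (chr21:8205988-8219302), RNA45SN3 (chr21:8389035-8402343) and RNA45SN1 (chr21:8433222-8446572), and a partial copy from RNA18SP5 to LOC110467529 (chr21:8253842-8260930). Each of these had 5 peaks in the vector library and 5 in the APOC2 library, and each peak overlapped a peak of the other library. In each full unit 1 peak lay on the 18S gene, 1 over the 5.8S gene and 3 on the 28S gene, the RNAs of the small and large ribosomal subunits. In the partial copy 2 peaks lay on the 18S remnant, 1 over the 5.8S remnant and 2 on the 28S remnant. Of the 5 numbered genes of each kind (45S, 28S, 18S and 5.8S), 3 could be placed, and all 3 had a peak in each library. The 17 genes of 5S rRNA, a separate array on chromosome 1 that RNA polymerase III transcribes, had no peak within 1 kb in either library.

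The peaks covered the mature rRNA sequences and not the start of the transcription unit. The 18S genes were covered over 87.9% to 94.9% of their length in the vector library and 89.9% to 96.6% in the APOC2 library. The 5.8S genes were covered over 100% in both, and the 28S genes over 65.9% to 67.8% and 68.8% to 73.6%. The 5′ external spacer, the stretch of the 45S precursor before 18S, was covered by no vector peak in any of the 3 units. APOC2 peaks covered 20 of its 3631 bases (0.551%) in RNA45SN3, next to 18S, and none in the other units. The peak nearest to a 45S start began 3611 bp after it. No peak of either library lay within 2 kb before a 45S start, where the core promoter of RNA polymerase I is, or between the units. The copies share almost all of their sequence, so their peaks are not independent of each other, and how the aligner divided reads among them is not given in the sources used here.

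**Figure D1:**
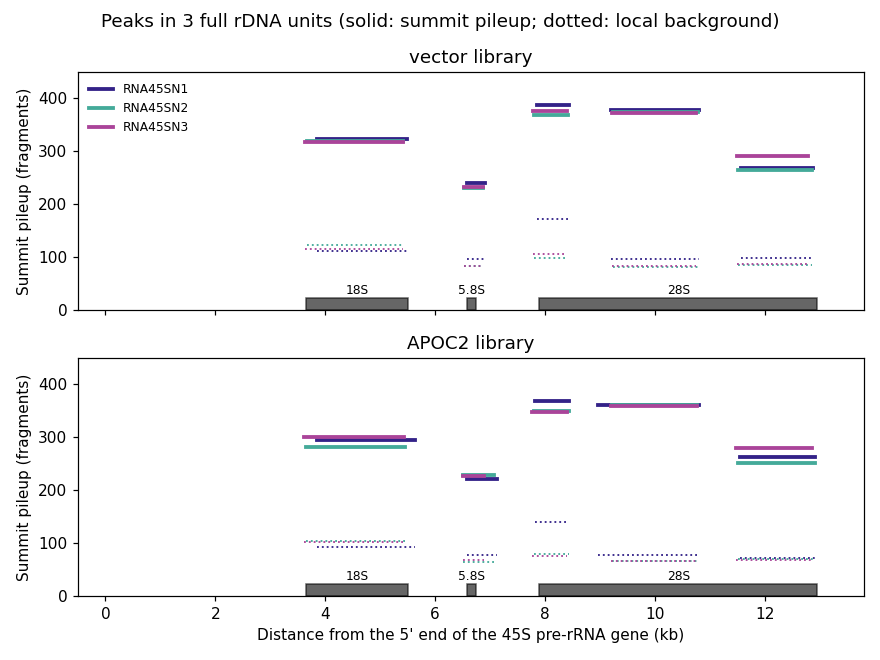
Summit pileup of each peak (solid lines, drawn over the width of the peak) and local background (dotted lines) against the distance from the 5′ end of the 45S gene in kb, for 3 rDNA units of chromosome 21, with vector above and APOC2 below and grey boxes for 18S, 5.8S and 28S. The peaks of the 3 units lie at nearly the same places and heights in both libraries, and none begins less than 3611 bp after the 45S start.

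The rDNA peaks were tall over a tall background. At the 18S genes the pileup at the summit, the number of overlapping fragments as the tables scale it, was 316.65, 319.62 and 322.59 in the vector library and 282, 295 and 301 in the APOC2 library. The fold enrichment there, which is the pileup plus 1 over the local background plus 1, was 2.59 to 2.86 in the vector library and 2.72 to 3.17 in the APOC2 library. The 5.8S genes had the lowest pileups of the full units, 229.57 to 239.47 in the vector and 222 to 229 in the APOC2 library. The middle one of the 28S peaks had the highest fold enrichment of the units, with 3.90 to 4.58 in the vector and 4.60 to 5.44 in the APOC2 library. Its pileups were 372.06, 374.04 and 377.01 in the vector library against 359, 361 and 362 in the APOC2 library. Local backgrounds at the 20 peaks ran from 63.999 to 172.001 fragments in the vector and from 51.6 to 139.857 in the APOC2 library, while the lowest background in the tables was 0.997 and 0.808.

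All 20 rDNA pairs had a higher fold enrichment in the APOC2 library, by a small amount. The median log2 ratio, APOC2 over vector, was 0.23 (95% order-statistic interval 0.21 to 0.29), with a range of 0.07 to 0.43, and no pair reached a 1.5-fold difference. This interval, like the one for depth-scaled pileup below, treats the 20 pairs as independent. Pairs on near-identical copies are not, so the 20 are not separate observations of a difference, and the intervals are too narrow to that extent. Over all 3300 shared pairs of the tables, 55.3% had a ratio above 0, and the median was 0.07. The direction depended on the scale: summit pileup as listed was lower in the APOC2 library at 19 of the 20 pairs. Pileup divided by the depth step of each table, which assumes that both libraries were called against the same control, was higher at all 20, with a median log2 ratio of 0.19 (0.17 to 0.22). For all pairs that median was 0.16, and 62.4% lay above 0. The highest pileups of the tables, 443.31 and 436, equal 1 read per position and strand at the shortest peak lengths of 224 and 218 bp, and the tallest rDNA peaks reached 87.5% and 84.6% of that ceiling. Whether the ceiling compressed the rDNA values was not tested.

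Apart from the annotated rDNA units, pileups above 100 fragments were rare in the windows. The vector library had 23 such peaks and the APOC2 library 22, of which 20 in each lay in the annotated rDNA units. The site chr21:7926245-7926573, which lay 69238 bp from LOC105379505, had a pileup of 251.34 in the vector library and 236 in the APOC2 library. Its fold enrichment was 4.51 and 5.16. A site 528 bp from MIR10396A, a microRNA gene, at chr21:8988193-8988652 had 110.83 and 111 fragments and a fold enrichment of 2.49 and 3.11. The microRNA gene of the same name series, MIR10396B, lies inside the rDNA unit RNA45SN1, at chr21:8436324-8436374. Whether the site near MIR10396A is a piece of rDNA that is not annotated as such was not tested. The last of these sites lay 81 bp from DUX4L44, a pseudogene of the DUX4 family, at chr22:12692023-12692560. It had 125.67 and 92 fragments and a fold enrichment of 2.11 and 2.06. Local backgrounds at these 3 sites were 34.96 to 58.9996 fragments.

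At annotated promoters the libraries differed, in the windows and over the whole genome. The windows held 48 RefSeq promoters of 39 genes. In the vector library 2 of them (4.17%, Wilson interval 1.15% to 13.98%) overlapped a peak, against 2.66% of all 35116 promoters. In the APOC2 library 10 (20.8%, 11.7% to 34.3%) did, against 12.9% of all promoters. The interval of the APOC2 share holds the share of all promoters, so no difference from the genome was detectable with these numbers. The 10 promoters lay on chromosome 21 and were overlapped by 9 peaks, since 1 peak overlapped the promoters of both U2AF1L5 and LOC102724652 (CRYAA2). That peak covered the start of CRYAA2 at position 6499203 but not the start of U2AF1L5 at position 6499248. At 8 of the promoters, under 7 peaks, the vector table listed none. This was no trait of the windows: of the 4516 promoters in the genome with an APOC2 peak, only 901 had a vector peak too.

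The 4 identical promoters of LOC124904990, LOC124904989, LOC124904991 and LOC124904992, long noncoding RNAs, had APOC2 pileups of 27, 31, 27 and 30 fragments. Their fold enrichments were 8.01, 6.91, 4.60 and 6.005. The summits lay 337, 272, 309 and 275 bp upstream of the starts, so the 4 peaks were alike in height and place. They cannot be counted as 4 separate binding events, because reads from 1 copy can be placed on any of them. Their local backgrounds were 2.497, 3.63, 5.08 and 4.16 fragments in the same order.

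The other promoters with a peak in the APOC2 library alone belong to copies of long-arm genes. LOC102723996, whose promoter was 92.3% identical to that of ICOSLG, a ligand of the T cell costimulator ICOS, had a peak at chr21:5022530-5022867 with 21 fragments and a fold enrichment of 6.21. The summit lay 164 bp inside the gene. The peak at chr21:6498946-6499229 over U2AF1L5 and CRYAA2 had 16 fragments and a fold enrichment of 6.38. U2AF1 codes for a subunit of the splicing factor that recognises the end of introns, and CRYAA for a lens crystallin. The promoter of U2AF1L5 was 99.7% identical to that of U2AF1 at chr21:43107521-43107820, where neither library listed a peak, nor was there one within 1 kb of the U2AF1 gene. SMIM11B, the copy of a gene for a small membrane protein, had a peak at chr21:7745001-7745218 with 14 fragments and a fold enrichment of 5.33, its summit 237 bp upstream. ICOSLG, CRYAA and SMIM11 on the long arm likewise had no peak within 1 kb in either library. For U2AF1L5, reads that match both copies cannot be placed on 1 of them; how far this holds for the other copies was not tested.

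LOC101930100, a long noncoding RNA, had the highest ratio of APOC2 to vector fold enrichment among all shared pairs of the windows, though not by pileup. Its start was covered by chr21:9325020-9325307 in the vector library with 54.42 fragments over a background of 12.9989, a fold enrichment of 3.96. In the APOC2 library the peak at chr21:9325021-9325377 had 80 fragments over a background of 9.99, a fold enrichment of 7.37. The log2 ratio was 0.90 for fold enrichment and 0.82 for depth-scaled pileup, and pileup as listed was higher too. Its promoter was 94.7% identical to that of LOC105379428, 94.0% to LINC01666, 93.0% to LOC107987323 and 92.7% to ZNF717, a zinc finger gene on chromosome 3, and none of those promoters had a peak. LOC101927345, annotated as protein coding, had nearly equal values in the libraries, with 13.85 and 13 fragments and fold enrichments of 6.86 and 7.20. Of the 10 promoters with an APOC2 peak, 9 had at least 10 CG dinucleotides (both strands read alike). This compares with 4471 of the 4516 promoters in the genome with an APOC2 peak and 56.4% of all promoters. Of the 38 window promoters without a peak, 28 (73.7%) had at least 10. Their median was 14.5 CG, against 14 for the 10 with an APOC2 peak, so a higher CG count was not seen within the windows when every promoter was counted. Counting the 4 identical promoters once, the 7 distinct sequences had a median of 31 CG in 300 bases, as did the promoters in the genome with an APOC2 peak, while all promoters had a median of 14. Each of the 4 identical promoters had 14. These counts describe the 300 bases of each promoter and not the bases under the summits. Only at LOC102723553 (237 bp upstream) and LOC102724652 (81 bp upstream) did the APOC2 summit lie within the 300 bases.

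**Figure D2:**
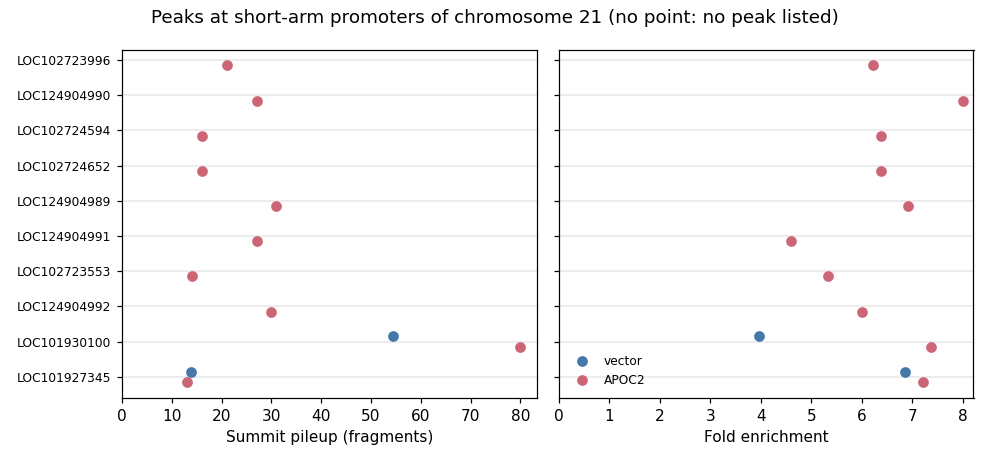
Summit pileup in fragments (left) and fold enrichment (right) of the peaks over the 10 short-arm promoters of chromosome 21 that overlapped an APOC2 peak, with vector in blue and APOC2 in red, and no point where the table lists no peak. LOC101930100 and LOC101927345 have a point in both libraries, and the pileups of the 4 identical promoters lie between 27 and 31.

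The list of 9 genes of the short arm of chromosome 21 could be placed in full. BAGE2, a pseudogene of a melanoma antigen family, had a peak within 1 kb in both libraries, and U2AF1L5, CRYAA2 and SMIM11B had one in the APOC2 library only. No peak of either library lay within 1 kb of the other 5, which are TPTE, FAM243B and the copies of CBS (LOC102724560), SIK1 (LOC102724428) and KCNE1 (LOC102723475). The strongest BAGE2 peaks lay at chr21:10470858-10471271 in the vector library, with a fold enrichment of 6.21, and at chr21:10457726-10457977 in the APOC2 library, with 5.01.

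A stretch of chromosome 21p held peaks of the APOC2 library alone. From position 5502178 to 7288900, 16 APOC2 peaks followed each other with no vector peak between them. Their fold enrichment ran from 3.87 to 8.01 with a median of 5.90, and their pileup from 6 to 51 fragments with a median of 12.5. This was the longest such run in the windows. Such runs were common elsewhere, since 5598 of all 8928 APOC2 peaks had no vector partner: outside the windows 45 runs of at least 16 APOC2 peaks were found, the longest with 43. The longest run of vector peaks with no APOC2 peak between them was 4 in the windows, on chromosomes 13 and 21, and 5 outside them. The long noncoding RNA LOC102724701, which spans chr21:6228966-6670731, had 7 of the 16 peaks within 1 kb or inside it. The tallest of them, at chr21:6318477-6318809, had 51 fragments and a fold enrichment of 6.79. LINC03104, LINC01670 and LOC105379499, further long noncoding RNAs of the stretch, had 1 APOC2 peak each with fold enrichments of 6.75, 4.85 and 7.18. The longest peaks of both libraries lay just beyond it, at chr21:7289300-7292162 (2863 bp, fold enrichment 10.9) in the vector library and chr21:7289374-7292088 (2715 bp, 9.96) in the APOC2 library. They were 91811 and 91885 bp from the nearest gene, LOC105379502.

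Of the 161 annotated genes of the windows, 35 (21.7%) had a vector peak and 42 (26.1%) an APOC2 peak within 1 kb, against 3.17% and 11.9% of all 59575 genes of the table. These numbers include all 12 rRNA genes, which are nested in the full rDNA units and share their peaks. The rRNA pseudogenes of the partial copy on chromosome 21 are counted too. A vector peak alone was found at 7 genes (4.35%), against 0.0806% of all genes, and an APOC2 peak alone at 14 (8.70%), against 8.85%. Of the 19 protein-coding genes 1 had a vector peak and 5 (26.3%) had an APOC2 peak, against 6.89% and 26.9% of all protein-coding genes. Long noncoding RNAs had more, 4 (9.52%) and 12 (28.6%) of 42, against 1.91% and 7.38%. The 12 include the 4 genes with identical promoters, which cannot be counted as separate binding events. They also include CH507-145C22.1, which lies inside LOC102724701, another of the 12. How far such copies raised the share was not tested. Of the 76 pseudogenes 16 (21.1%) had a vector peak and 10 (13.2%) an APOC2 peak, against 0.570% and 1.37% of all pseudogenes. Pseudogenes with a vector peak alone numbered 6 in the windows and 7 in the whole table (0.0411%). Neighbouring genes can share a peak, so these genes are not independent of each other. The highest fold enrichment beside any gene belonged to ANKRD20A16P, an ankyrin repeat pseudogene at chr21:8877127-8881176, with 9.91 in the vector library and 7.19 in the APOC2 library. The pseudogene LOC101928041 on chromosome 22 followed with 8.42 and 5.78, but at different sites, chr22:11891106-11891360 in the vector and chr22:11883495-11883749 in the APOC2 library. At the second site the paired vector peak, chr22:11883163-11883745, had a fold enrichment of 5.37. FRG1GP, a pseudogene of the FRG1 family on chromosome 22, had 2 vector peaks, the stronger with 7.93, and no APOC2 peak. The mitochondrial pseudogenes MTCO1P33 and MTCO3P33 shared a vector peak with a fold enrichment of 6.94 and had none in the APOC2 library.

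Most peaks lay far from any gene. In the vector library 426 peaks (79.9%) and in the APOC2 library 550 (76.3%) lay more than 100 kb from the nearest annotated gene. Only 38 (7.13%) and 52 (7.21%) overlapped a gene. The peaks gathered toward the long arm: 44.3% of the vector and 39.4% of the APOC2 peaks lay within 500 kb of the inner edge of their window, and 62.7% and 57.4% within 1 Mb. The share within 500 kb was highest on chromosome 14 (62.6% and 62.3%) and lowest on chromosome 21 (27.3% and 22.3%). The densest 100 kb of each window showed the same order of numbers in both libraries. It held 15 vector and 19 APOC2 peaks at chr13:17800001-17900000, 18 and 20 at chr14:18000001-18100000, and 4 and 7 at chr15:19700001-19800000. On the remaining chromosomes it held 15 and 23 at chr21:12700001-12800000 and 16 and 20 at chr22:14800001-14900000.

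**Figure D3:**
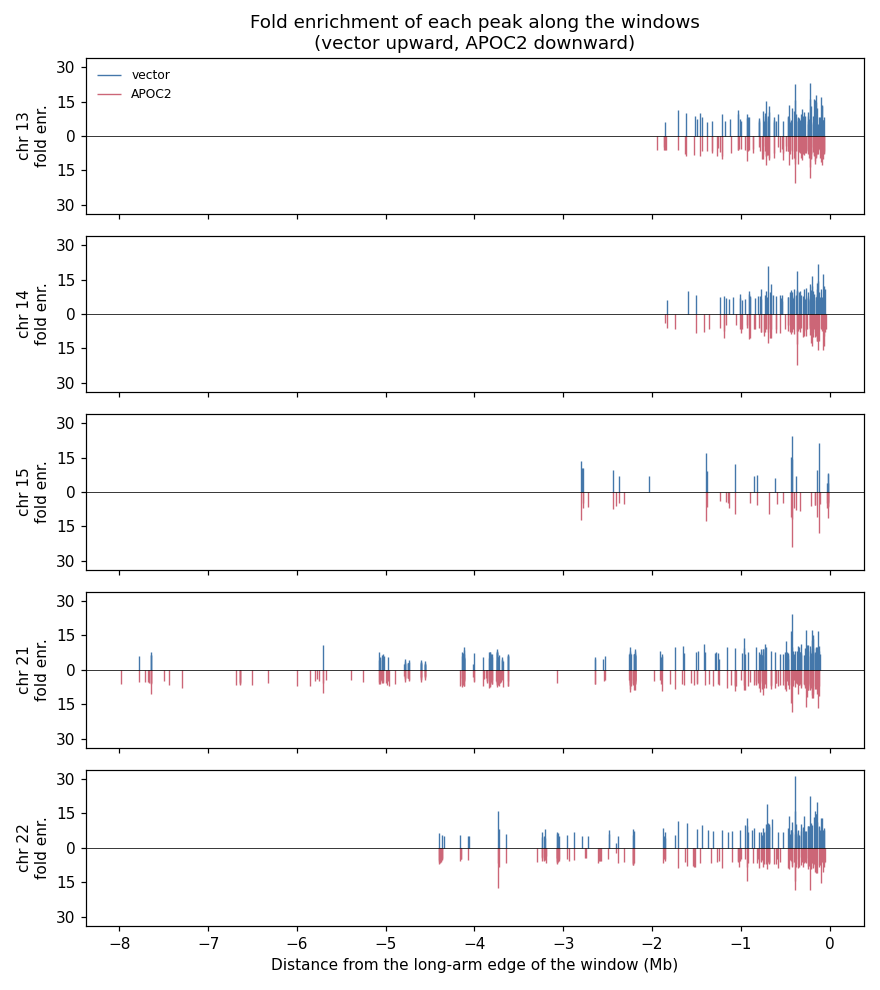
Fold enrichment of each peak (vertical lines, vector upward and APOC2 downward) against the distance from the long-arm edge of the window in Mb, for the 5 acrocentric chromosomes. Peaks crowd toward the edge on every chromosome, with 334 of 533 vector and 414 of 721 APOC2 peaks within 1 Mb of it.

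In number, the libraries differed less in the windows than in the rest of the genome. APOC2 peaks in them were 1.35 times as many as vector peaks (1.21 to 1.51), while over all other peaks the ratio was 2.36 (2.27 to 2.45). The intervals do not overlap. The ratio was 1.28 on chromosome 13, 1.16 on chromosome 14, 1.77 on chromosome 15, 1.404 on chromosome 21 and 1.395 on chromosome 22, with intervals that overlapped each other. By class, it was 1.79 (1.38 to 2.31) in the gene-bearing short arms, 1.28 (1.12 to 1.45) in the gene-free stretch and 1 in the rDNA. The gene-free stretch was close to gene-free intervals of at least 1 Mb outside the windows, where 1998 vector and 2537 APOC2 peaks gave a ratio of 1.27 (1.197 to 1.35). All remaining peaks, 1484 and 5670, gave 3.82 (3.61 to 4.05).

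**Figure D4:**
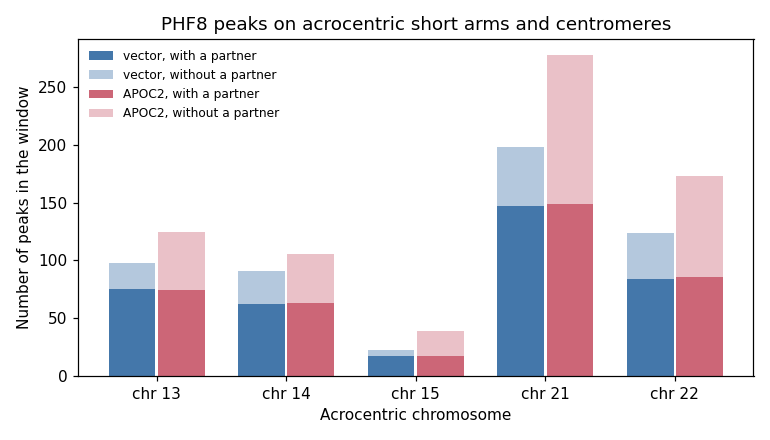
Number of peaks in the window of each acrocentric chromosome, with vector in blue and APOC2 in red, divided into peaks that overlap a peak of the other library (dark) and peaks that do not (light). The numbers with a partner are nearly equal in the libraries, and the APOC2 library has more peaks without one on all 5 chromosomes.

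A smaller share of vector peaks and a larger share of APOC2 peaks had a partner in the windows than over the whole tables, where the shares lay outside the intervals of those of the windows. Of the 533 vector peaks, 385 (72.2%, 68.3% to 75.9%) were overlapped by an APOC2 peak by at least 1 bp, against 83.6% of all vector peaks. Of the 721 APOC2 peaks, 389 (54.0%, 50.3% to 57.6%) had a partner, against 37.3% of all APOC2 peaks. In gene-free intervals elsewhere these shares were 79.0% (77.2% to 80.8%) and 62.0% (60.1% to 63.9%), both above those of the windows as a whole, with intervals that did not overlap. Within the windows, the gene-bearing short arms had the lowest shares, 64.4% and 37.3%, and the gene-free stretch had 72.6% (68.1% to 76.6%) and 57.2% (53.0% to 61.3%). The second of these intervals overlapped that of gene-free intervals elsewhere, and the first did not. The gene-bearing arm of chromosome 22 had 42.3% (25.5% to 61.1%) of 26 vector peaks shared, and that of chromosome 21 had 73.4% (61.5% to 82.7%) of 64.

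Peaks with a partner were somewhat stronger than peaks without one. Among APOC2 peaks, the medians of fold enrichment were 6.75 with a partner and 6.08 without, a ratio of 0.901 (0.846 to 0.917). Among vector peaks they were 7.93 and 6.94. Over all APOC2 peaks of the table the ratio was 0.678, and over all vector peaks it was 0.933 against 0.875 in the windows. By pileup the APOC2 ratio was 0.846 in the windows and 1 over the table, so whether the difference was smaller or larger in the windows depended on the library and the measure. The strongest unpartnered vector peaks were chr22:14448468-14448744 with a fold enrichment of 12.4, and chr21:11588494-11588770 and chr22:14956368-14956689 with 11.4 each. The strongest unpartnered APOC2 peaks all lay on chromosome 13, at chr13:16883960-16884258, chr13:17337486-17337727 and chr13:17348785-17349052, with 17 fragments and a fold enrichment of 9.96 each. All of these lay at least 307800 bp from any annotated gene.

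At most shared sites the APOC2 library had the lower fold enrichment. The 383 pairs of the windows had a median log2 ratio of -0.19 (-0.23 to -0.13), against 0.07 (0.05 to 0.09) over all pairs. The ratio was above 0 at 120 pairs (31.3%), against 55.3% of all pairs. Without the rDNA, 363 pairs had a median of -0.22, and 100 (27.5%) lay above 0. It was at least 1.5-fold lower at 51 pairs (13.3%), against 7.97% of all pairs, and at least 1.5-fold higher at 7 (1.83%), against 17.6%. Depth-scaled pileup gave a median of -0.084 (-0.14 to -0.042) in the windows and 0.16 over all pairs, with 159 window pairs (41.5%) above 0. In the gene-free stretch 306 pairs had a median of -0.23 (-0.29 to -0.18), with 49 lower and 5 higher by at least 1.5-fold, and their depth-scaled median was -0.14 (-0.19 to -0.074). The 57 pairs of the gene-bearing short arms had a median of -0.11 (-0.22 to -0.033), but their depth-scaled interval, -0.19 to 0.039, held 0, and 29 of them were higher in the APOC2 library by pileup over background without the added 1. Gene-free intervals elsewhere had -0.14 (-0.16 to -0.12) over 1561 pairs, with a depth-scaled median of -0.042 (-0.064 to -0.0098), and on neither measure did the interval overlap that of the gene-free stretch.

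**Figure D5:**
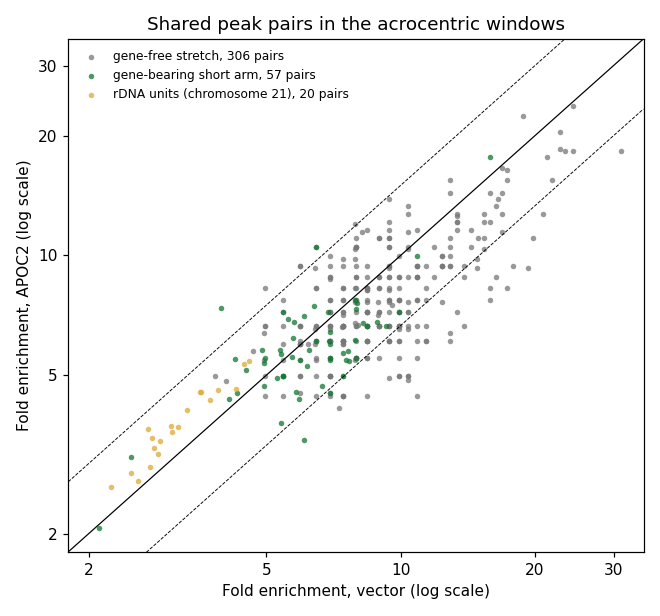
Fold enrichment in the APOC2 library against that in the vector library for the 383 shared pairs of the windows, on log axes, coloured by class, with the line of equality (solid) and 1.5-fold differences (dashed). The 20 rDNA pairs lie above the line and most of the 306 pairs of the gene-free stretch lie below it.

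Local background moved with these classes. It lay within 5% of the lowest value of its table at 83.9% of the vector and 81.6% of the APOC2 peaks of the windows, against 54.7% and 33.1% of all peaks. In the gene-free stretch it did so at 96.5% of vector peaks and at 513 of the 540 APOC2 peaks, in gene-free intervals elsewhere at 81.5% and 83.1%, and at none of the 20 rDNA peaks of either library. The part of the background level in the lower fold enrichments was not tested. Median pileups in the windows were 15.83 and 11 fragments and median lengths 298 and 284 bp. At such pileups the values of single pairs rest on few fragments.

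The strongest shared sites lay in the gene-free stretch and were high in both libraries. The tallest by mean fold enrichment was chr22:14711191-14711577, with 61.35 fragments and a fold enrichment of 31.2 in the vector library. The APOC2 library had 32 fragments and a fold enrichment of 18.3 there, a log2 ratio of -0.77, and the summits fell on the same base. On chromosome 15, chr15:19374689-19375173 had 47.5 and 42 fragments with fold enrichments of 24.3 and 23.8, so the libraries hardly differed there. The pair chr13:17708114-17708487 had 44.53 and 36 fragments with fold enrichments of 22.8 and 20.5. On chromosome 21, chr21:12572686-12573026 had 47.5 and 32 fragments with 24.3 and 18.3, and chr13:17875042-17875541 had 45.52 and 32 with 23.3 and 18.3. The strongest pair of chromosome 14 had the opposite direction: chr14:17830398-17830757 had 36.61 fragments and a fold enrichment of 18.8 in the vector library and 40 fragments and 22.4 in the APOC2 library.

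The largest differences at single pairs were at sites of lower fold enrichment than the strongest shared sites. After LOC101930100, the highest ratios were at chr22:14760417-14760804, from 4.96 to 8.30 in fold enrichment, and at chr13:17575083-17575339, from 6.45 to 10.5. Their pileups were 8.91 and 14 fragments at the first site and 11.87 and 18 at the second. The lowest ratios were at chr13:17352531-17352837, from 10.9 to 4.42 (20.78 and 7 fragments), and at chr14:17984271-17984588, from 12.9 to 6.08 (24.74 and 10 fragments). At chr15:17025680-17026071 the fold enrichment was 10.4 and 4.88. There the local backgrounds of the libraries were 0.999938 and 1.66 fragments, and the log2 ratio was -1.09 for fold enrichment but -0.46 for depth-scaled pileup. None of these 5 sites lay in the gene-bearing short arms, and with 1 library per condition none can be set against variation between replicates.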

How the data were processed

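PHF8 ChIP-seq peaks of 1 vector and 1 APOC2 library of RKO cells were analysed as the authors deposited them, in the column layout of MACS2. Bowtie2 2.2.9, MACS2 2.0, HOMER and hg38 are named, without their roles, by the submitters' processing notes. Per the file headers, the deposited tables give the summit pileup (signal) and the fold enrichment, a ratio. The headers of another pair of deposited columns were lost, and their values were read as −log10 p and −log10 q: a Poisson tail recomputed from pileup and background gave −log10 p within 0.1 for 99.7% of vector and 99.9% of APOC2 peaks. Background was computed as (pileup + 1) / fold enrichment − 1. The control library, the treatment of reads that map to several places and of duplicate reads, and read totals are not given in the sources used here, so depth is unknown. The value steps (0.98953 fragments for the vector pileup, 0.832 for the APOC2 background) put the APOC2 library at 0.824 times the depth of the vector library if the control was the same. Depth-scaled pileup is APOC2 pileup divided by 0.832.

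Peaks sharing at least 1 bp between libraries were called shared, and pairs were formed by the longest overlap, each peak used once. Intervals are 95% Wilson intervals for shares, the same turned into a ratio for peak numbers, and binomial order-statistic intervals for medians. They cover counting error over peaks or pairs only, since each condition had 1 library, and they treat peaks as independent. Fragments were counted without molecular identifiers. No p-value was computed. The code was tested on simulated data. RefSeq tables (GRCh38.p14) gave genes and promoters. Table entries on the 5 chromosomes that start below 5 Mb have positions on unplaced sequence and were left out, which removed RNA45SN4 and RNA45SN5. Sequence motifs in peaks had been planned and were not run, since no genome sequence was used here.

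Named regions are, by rule, the strongest shared pair of each window, the 5 strongest pairs overall by mean fold enrichment, the 3 strongest unshared peaks of each library, the 3 largest rises and falls, the longest peaks and the densest 100 kb bins. Named genes are those within 1 kb of a peak, nearest the strongest peaks, and the rDNA and 21p gene lists. The tall sites outside the annotated rDNA units, the run of APOC2 peaks and the promoters were named after their values were seen. The regions, rules and lists were chosen with earlier results of these data known. Python 3.11.15, numpy 2.4.6, scipy 1.17.1 and biopython 1.88 were used.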

Additional observations from a re-analysis of the deposited data

How the results depend on the processing

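Of 69 alternative values computed for 5 results (peak number ratio, both shares of shared peaks, median log2 ratio at shared pairs, and unshared over shared median fold enrichment), 56 stayed within the interval of the reported value and 13 moved, none with a change of sign. The share of vector peaks with a partner was 63.9% with fold enrichment of at least 5, 62.9% when 50% of both peaks had to overlap, 79.4% when peaks within 1 kb counted as shared, and 30.6% among equal numbers of top-ranked peaks, where only 194 APOC2 peaks of the windows remained. The share of APOC2 peaks with a partner was 46.5%, 61.9% and 84.0% under the last 3 of these. The median log2 ratio at shared pairs was -0.35 with pileup as listed, -0.084 with depth-scaled pileup, -0.060 without the added 1, -0.26 without chromosome 21 and -0.012 (-0.090 to 0.11) among equal numbers of top-ranked peaks. The unshared over shared ratio was 0.745 with −log10 p. The cause of these moves was not tested. Leaving out the rDNA peaks, an alternative chosen after seeing the data, gave 1.37, 71.2%, 52.6%, -0.22 and 0.846 for the 5 results in the order above. No paired analysis was possible because each condition had 1 library. The median pileups of 15.83 and 11 fragments limit what can be said of single peaks.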

Other observations

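Among the placed rRNA pseudogenes of the reference, only those of the partial copy on chromosome 21 had a peak nearby. The gene table places 18 pseudogenes derived from 18S, 5.8S or 28S rRNA on other chromosomes, and neither library had a peak within 1 kb of any of them. Over all pseudogenes only 0.570% had a vector peak and 1.37% an APOC2 peak within 1 kb, so this lack does not set the 18 apart. Of the 8 in the windows, 5 on chromosomes 14 and 22 had none either. The other 3, RNA18SP5, RNA5-8SP10 and LOC110467529 of the partial copy on chromosome 21, had peaks in both libraries, with pileups of 194 to 383.94 fragments. Copies on unplaced sequence were not analysed here.

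Bins of 100 kb that held a peak were compared between the libraries. Of 139 such bins in the windows, 111 (79.9%) had peaks of both libraries, 27 (19.4%) APOC2 peaks only and 1 (0.719%) vector peaks only. Of 4567 such bins outside the windows, 33.1% were shared, 66.0% had APOC2 peaks only and 0.963% vector peaks only. The window bins held 533 vector and 721 APOC2 peaks, against 3482 and 8207 peaks outside, so they were more crowded. A crowded bin is more likely to hold both libraries, so the bin shares do not measure the sharing of peaks. By peak, 72.2% of vector and 54.0% of APOC2 peaks had a partner in the windows, against 85.3% and 35.8% of all other peaks. Of the 49 bins with a peak on chromosome 21, 36 had peaks of both libraries, 13 had APOC2 peaks only and none had vector peaks only. On chromosome 22 the numbers were 36, 31, 5 and none. On chromosome 13 they were 20, 18, 2 and none, and on chromosome 14 they were 18, 15, 3 and none. Chromosome 15 had 16 such bins, with 11 shared, 4 of APOC2 only and 1 of vector only.

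Paired summits lay closer together at the rDNA than elsewhere in the windows. The median distance between the vector and APOC2 summits was 8.5 bp over the 20 rDNA pairs, 31 bp over the 306 pairs of the gene-free stretch and 110 bp over the 57 pairs of the gene-bearing short arms. Over all 3300 pairs of the tables it was 33 bp.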
